A study of Mus musculus with 48 samples.

Results

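The regions described here were start site regions marked by H3K4me3 in the mouse cerebellum at postnatal day 22 that overlapped at least 1 other region of the same list. Each region of the list was 1000 bp long, 500 bp on either side of a transcription start site, with positions on genome build mm9. Of 15127 regions, 4513 shared 1 bp or more with another region and 10614 overlapped none. The overlapping regions were 29.8% of the list (exact Clopper-Pearson 95% interval 29.1 to 30.6%, for counting error only). Since all regions had the same length, an overlap means that the centres of neighbouring regions, the start sites, were less than 1000 bp apart.

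H3K4me3 is trimethylation of lysine 4 on histone H3, a mark of nucleosomes that flank active and poised start sites. It is widely used to tell which annotated starts of a gene are in use in a tissue. Overlapping regions share bases, however, so the list does not show whether each of several close starts was marked separately. Starts that lie close together are commonly of 2 sorts. One gene can have alternative starts, which give transcripts with different first exons, or neighbouring genes on opposite strands can start back to back from one divergent promoter. Mammalian promoters of both sorts often lie in CpG islands. H3K27ac, acetylation of lysine 27 on the same histone, marks active enhancers and promoters.

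The series compared cerebella of wild type mice (WT) and of mice with a conditional knockout of Chd4 (Chd4 cKO), the ATPase of the NuRD nucleosome remodeler. None of its 48 sample labels names H3K4me3 or H3K27ac, so which libraries, of which genotype and depth, stand behind the region lists is not known here, and no region has a value per sample. The gene tables used further on compared 4 cKO with 4 WT cerebella and 4 cerebella of WT mice trained on a rotarod, a turning rod, with 4 of WT mice left at rest, all as messenger RNA at postnatal days 27 to 28. Neither the driver of the knockout nor whether each library was 1 animal is stated in the labels, so p-values measure only the spread between these samples, which may be technical.

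The overlapping regions formed 2071 groups, where a group is a chain of regions that each overlap the next. Together with the 10614 lone regions they made 12685 separate loci. Most groups were pairs: 1779 groups held 2 regions (85.9% of groups), 234 held 3, 40 held 4, 15 held 5 and 3 held 6. Groups of 3 or more regions were 14.1% of groups and held 21.2% of the overlapping regions. A typical overlapping region had 1 partner: 3616 regions (80.1%) overlapped 1 other directly, 689 overlapped 2, 133 overlapped 3, 60 overlapped 4 and 15 overlapped 5. In 2027 groups (97.9%) every pair of regions overlapped. In the other 44 groups the first and the last region were joined only through those between them.

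Overlap made the list longer than the ground it covers. The overlapping regions summed to 4513 kb and covered 2743 kb of the genome, and the whole list covered 13357 kb. A group spanned 1239 bp in the median (quartiles 1101 and 1482 bp, range 1001 to 3091 bp). Any total over the list as deposited therefore counts the bases of these groups more than once.

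Start sites within a group were mostly much closer than the limit of 1000 bp. Neighbouring centres were 207 bp apart in the median (quartiles 81.0 and 405.5 bp, 2442 neighbours in groups). Of these distances 29.4% were at most 100 bp, 57.3% at most 250 bp and 82.2% at most 500 bp. Centres at most 10 bp apart made up 3.69% (90 neighbours). By steps of 100 bp the number of neighbours fell from 712 under 100 bp to 480, 383, 245 and 187 in the next 4 steps, and to 49 between 900 and 999 bp. Spacing differed little with the size of the group: the median was 211 bp in groups of 2, 201 bp in groups of 3 and 190 bp in larger groups.

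**Figure D1:**
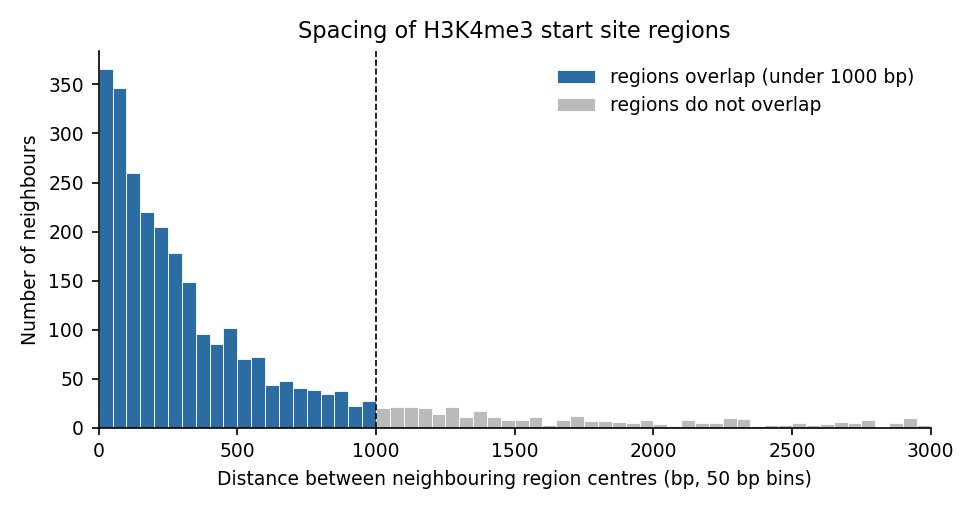
Number of neighbouring H3K4me3 start site regions by the distance between their centres, in bins of 50 bp up to 3000 bp; blue bars are neighbours that overlap, grey bars those that do not, and the dashed line is the limit of 1000 bp. The bars fall from 366 neighbours under 50 bp to 27 just under the limit and stay low beyond it.

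Few neighbours lay near the limit that defines overlap. The most distant centres inside it were 999, 999 and 995 bp apart, and the closest outside it were 1011, 1013 and 1013 bp apart. There were 49 neighbours at 900 to 999 bp and 41 at 1000 to 1099 bp, similar numbers on both sides of the limit. Between 1000 and 1999 bp there were 239 neighbours, against 2442 under 1000 bp.

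The 3 largest groups held 6 regions each. On chromosome 11 a group at chr11:69733633-69735960 had centres 317, 138, 190, 111 and 572 bp apart in order along the chromosome, over a span of 2328 bp. The group at chr17:46816902-46818628 was tighter, with steps of 330, 148, 55, 135 and 59 bp over 1727 bp. At chr4:40668851-40670462 the last 4 of the 6 centres fell within a short stretch, with steps of 75, 5 and 8 bp after steps of 150 and 374 bp. The 2 longest of the 15 groups of 5 regions, with chromosome 18 left out, were chr10:94877418-94880508, with steps of 201, 728, 645 and 517 bp over 3091 bp, and chr1:157881448-157884110, with steps of 846, 63, 309 and 445 bp over 2663 bp. Steps between neighbouring centres in the 5 groups named thus ranged from 5 to 846 bp. The list names no gene or strand, so whether the starts of a group belong to one gene or to several was not determined.

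At the other extreme, 10 groups of 2 had centres 1 bp apart, so that the regions of a pair shared all but 1 base. Of these, 3 lay on chromosome 2, at chr2:175100125-175101125, chr2:175799670-175800670 and chr2:176329363-176330363. The most distant pairs that still overlapped were chr11:74710083-74712081, with centres 999 bp apart, chr9:35365556-35367550 at 995 bp and chr5:104475530-104477521 at 992 bp.

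Some groups recurred with exactly the same spacing close to each other. These groups were chosen after their values were seen, and no chance test was made. No sequence was compared, so equal spacing does not show that sequence was copied. Among the 292 groups of 3 or more regions, 8 repeated the spacing of another group, in 3 patterns, and in each pattern the groups lay on the same chromosome. On chromosome 14 a group of 5 with steps of 78, 11, 406 and 16 bp occurred 3 times, at chr14:26746148-26747658, chr14:26885901-26887411 and chr14:27025517-27027027. The second of these groups started 139753 bp after the first and the last 139616 bp after the second. On chromosome 13 a group at chr13:21901569-21902835 had steps of 167 and 100 bp, and the group 23276 bp further on, at chr13:21924845-21926111, had the same steps in reverse order, 100 and 167 bp. On chromosome 4 steps of 495 and 160 bp occurred 3 times, at chr4:88436299-88437953, chr4:88442146-88443800 and chr4:88450935-88452589.

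**Figure D2:**
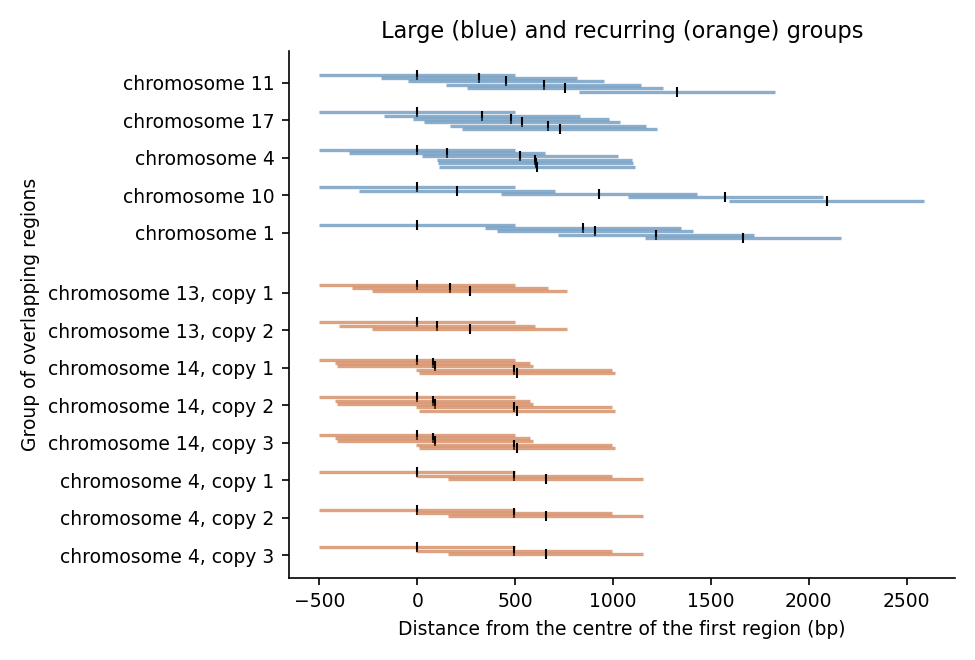
Maps of the 3 groups of 6 regions and the 2 longest groups of 5 outside chromosome 18 (blue) and of the 8 groups whose spacing recurs (orange); each bar is a region of 1000 bp, each tick its centre, and the x axis is the distance from the centre of the first region in bp. The 3 groups on chromosome 14 have the same 5 positions, and the 2 on chromosome 13 are mirror images. The word copy in the labels only numbers the groups of a pattern.

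Pairs recurred too: 21 of the 1779 groups of 2 had the same spacing as another group of 2 less than 1 Mb away on the same chromosome. On chromosome 4 a pair 160 bp apart occurred at chr4:88419238-88420397 and chr4:88422166-88423325, beside the groups with steps of 495 and 160 bp, so that 5 groups within 33.4 kb held the 160 bp step. On chromosome 17 a pair 108 bp apart occurred 4 times, at chr17:6600296-6601403, chr17:6654457-6655564, chr17:6805888-6806995 and chr17:6860049-6861156. The first and second of these were 54161 bp apart, and so were the last 2. On chromosome 3 the pairs at chr3:96042551-96043565, chr3:96043758-96044797, chr3:96048880-96049919 and chr3:96050108-96051122 had spacings of 15, 40, 40 and 15 bp in that order, a mirrored arrangement.

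Chromosome 2 held 7 of these pairs in 1.3 Mb, among them the 3 pairs with centres 1 bp apart. A pair 7 bp apart at chr2:175031919-175032925 recurred 835951 bp further on, at chr2:175867870-175868876, and a pair 35 bp apart at chr2:175295026-175296060 recurred 835896 bp further on, at chr2:176130922-176131956. The remaining recurring pairs, 40 bp apart on chromosome 10 and 68 bp apart on chromosome 7, were 909.7 and 720.4 kb from the pair of equal spacing. Groups with a recurring spacing were 29 in all, 1.4% of groups. How many of them had equal spacing by coincidence was not worked out. The part that reads matching more than 1 place in the genome had in these regions was not tested.

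The share of overlapping regions varied moderately between chromosomes. Over chromosomes 1 to 19 and X it ran from 24.1% on chromosome 10 (170 of 706 regions, exact 95% interval 21.0 to 27.4%) to 35.4% on chromosome 17 (269 of 759, 32.0 to 39.0%), with a median of 29.1%. The interval lay above the overall share on 4 of these 20 chromosomes (2, 11, 12 and 17) and below it on 2 (6 and 10). Neighbouring regions are not independent, so these intervals are narrower than the true uncertainty. Chromosome X, with 28.3%, lay among the autosomes. None of the 4 regions on chromosome Y overlapped another, which allows a share of up to 60.2% by the exact interval and 75.0% by a floor of 3 counts. Groups of 3 or more were most frequent among the groups of chromosomes X (20.3%) and 3 (20.2%) and least frequent among those of chromosome 8 (5.56%).

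**Figure D3:**
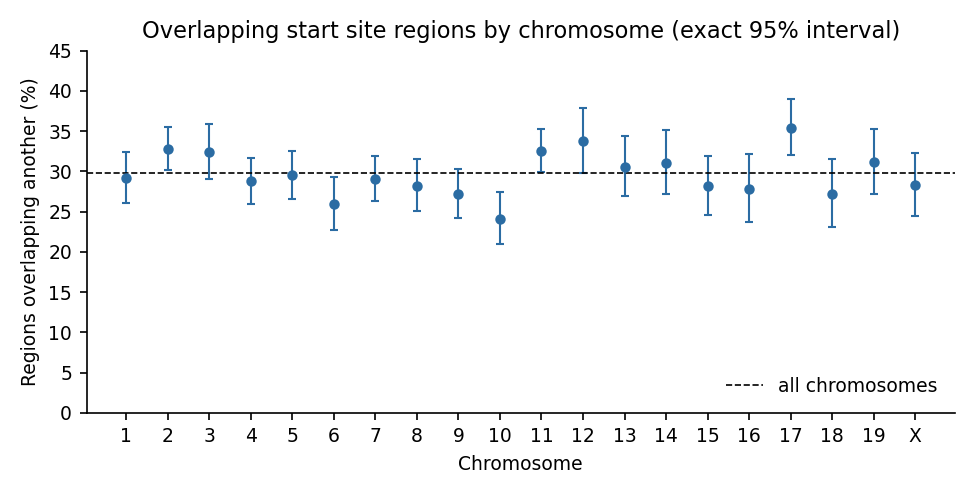
Percent of H3K4me3 start site regions that overlap another region, by chromosome; points are shares, bars are exact 95% binomial intervals, and the dashed line is the share over all chromosomes. Chromosome 17 is highest at 35.4% and chromosome 10 lowest at 24.1%.

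The overlapping regions were next set beside the list of 26183 H3K27ac regions, also 1000 bp long and labelled as enhancers. No overlapping region touched an H3K27ac region: 0 of 4513, which allows a share of up to 0.0665% by a floor of 3 counts and 0.0817% by the exact interval, and 0 of the 10610 lone regions on chromosomes with H3K27ac regions, which allows up to 0.0283% and 0.0348%. The nearest H3K27ac region to any overlapping region lay 640 bp away edge to edge, and to any lone region 451 bp away. The empty zone was thus found around overlapping and lone regions, and any rule by which the list of enhancers left out starts is not stated in the labels. The bounds above cover counting error only and cannot allow for such a rule. A count of 0 therefore does not show that these starts lacked H3K27ac. Overlap within the H3K27ac list itself was rare: 8 of its regions (0.0306%) overlapped another of the list, against 29.8% of the H3K4me3 regions. All H3K27ac regions started on a multiple of 100 bp, as 1.08% of the H3K4me3 regions did, so the regions of the lists were placed in different ways.

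Beyond that zone, groups of overlapping regions and lone regions lay at similar distances from H3K27ac. Each group was counted once here, by its whole span. The median distance was 34.6 kb for groups (quartiles 11.9 and 90.8 kb) and 31.2 kb for lone regions (10.9 and 90.8 kb). An H3K27ac region lay within 5 kb of 8.69% of groups (180 of 2071, exact 95% interval 7.51 to 9.99%) and of 9.59% of lone regions (9.03 to 10.2%). Within 10 kb the shares were 21.3% (19.6 to 23.2%) and 23.1% (22.3 to 24.0%), and within 50 kb 60.2% (58.0 to 62.3%) and 61.1% (60.2 to 62.1%). These intervals overlapped at each of the 3 distances. Of all distances plotted, the intervals were apart only at 15 kb: 29.3% of groups (27.3 to 31.3%) and 32.4% of lone regions (31.5 to 33.3%) had an H3K27ac region. Neighbouring loci can share H3K27ac regions, so the intervals are narrower than the true uncertainty, and their overlap or gap is not a test.

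**Figure D4:**
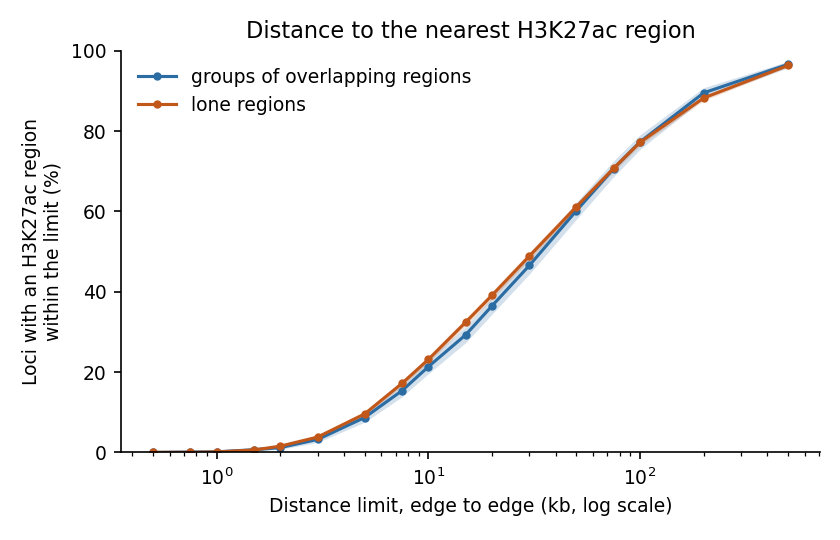
Percent of loci with an H3K27ac region within a given distance, edge to edge in kb on a log scale, for groups of overlapping regions (blue, each counted once) and lone regions (orange); shaded bands are exact 95% intervals. The curves run close together, with groups slightly lower between 5 and 30 kb (46.5% against 48.9% at 30 kb) and close again by 100 kb (77.3% and 77.2%).

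By chromosome the direction was mixed. Groups had the lower share within 5 kb on 11 of 20 chromosomes and within 10 kb on 13, and the longer median distance on 15. On chromosome 1, 4.39% of groups and 8.92% of lone regions had H3K27ac within 5 kb, and on chromosome 6 the order was turned, with 13.6% of groups and 8.08% of lone regions. The intervals of larger groups and of pairs overlapped: 25.0% of the 292 groups of 3 or more (20.1 to 30.4%) and 20.7% of pairs (18.9 to 22.7%) had an H3K27ac region within 10 kb. Of the large groups named above, the one on chromosome 1 was 8.79 kb from the nearest H3K27ac region, that on chromosome 10 was 15.5 kb away, and those on chromosomes 4, 17 and 11 were 39.6, 42.7 and 91.0 kb away. The 3 pairs with centres 1 bp apart on chromosome 2 were 415.5, 194.3 and 96.6 kb away.

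Groups had slightly more marked start loci around them. Within 50 kb of its midpoint a group had 1.47 other loci on average and a lone region 1.28, with a median of 1 for both. At least 1 other locus lay within 50 kb of 63.2% of groups (61.0 to 65.2%) and of 57.4% of lone regions (56.4 to 58.3%), intervals that did not overlap. Neighbouring loci count each other here, so these intervals are narrower than the true uncertainty and are not a test. The mean was higher for groups on 14 of 20 chromosomes, with 2.92 against 1.88 on chromosome 19 and the reverse, 1.42 against 1.61, on chromosome 8. It rose with the size of the group, from 1.40 for pairs to 1.90 for groups of 3 or more. Within 10 kb the order of groups and lone regions was turned, with means of 0.199 and 0.206 and at least 1 other locus beside 15.2% and 16.8%. Close neighbours that did not overlap counted here: 407 lone regions (3.83%) and 61 groups (2.95%) had another locus less than 1 kb away, edge to edge.

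No annotation of build mm9 was used, so regions could not be joined to genes. To show which kinds of close starts the mouse annotation holds, starts of coding and long noncoding RNA (lncRNA) genes were taken from RefSeq on another build, GRCm38.p6, and neither build was converted to the other. Of 32812 annotated start positions 28.7% lay within 1 kb of another, beside 29.8% of the H3K4me3 regions. Among 5366 annotated neighbours within 1 kb, 2972 (55.4%) were starts of the same gene, 1658 (30.9%) were divergent starts of different genes, 643 (12.0%) faced each other and 93 (1.73%) ran in the same direction. Of the divergent neighbours 744 joined coding genes and 824 joined a coding with a lncRNA gene. Their median spacing was 141 bp, that of starts of the same gene 114 bp and that of facing starts 288 bp, beside 207 bp between the H3K4me3 regions. The annotated starts include ones without H3K4me3 in the cerebellum, so these values describe the annotation and not the regions.

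The 250 bases before an annotated start were richer in CpG where starts were close. The median was 8.0 CpG per 100 bases at 1488 starts in divergent pairs of coding genes, 5.6 at starts near another of the same gene and 2.4 at starts with none within 1 kb, against 4.0 over all starts of coding genes. The motif TATAAA, searched on both strands, was in 4.03%, 6.26% and 13.9% of these windows and in 11.6% of all. Divergent starts of all kinds were 141 bp apart in the median and starts of the same gene 114 bp. Windows of close starts thus often shared bases, and divergent ones often ran into the partner gene, unlike those of starts with none near. The classes are therefore not compared like for like. The bases between the starts of 3 of the pairs described below show the range of CpG content, with each CpG in capitals. They are plus strand, 5′ to 3′, on GRCm38.p6, from RefSeq.
Fam216a and Gpn3, chr5:122372343-122372507: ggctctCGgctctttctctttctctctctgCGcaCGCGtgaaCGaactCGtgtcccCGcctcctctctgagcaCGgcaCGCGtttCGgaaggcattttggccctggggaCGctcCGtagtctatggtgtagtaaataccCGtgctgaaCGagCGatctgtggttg
Ubxn10 and Pla2g2c, chr4:138725266-138725324: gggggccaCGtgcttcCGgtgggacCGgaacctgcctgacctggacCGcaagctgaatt
Tmem176b and Tmem176a, chr6:48841375-48841482: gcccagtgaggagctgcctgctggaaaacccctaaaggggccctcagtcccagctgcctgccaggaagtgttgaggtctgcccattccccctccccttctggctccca
The first stretch held 16 CpG in 165 bases, the second 4 in 59 and the third none in 108, and none of them held TATAAA.

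Expression in Chd4 cKO was then followed at these annotated pairs. The authors' deposited table holds the genes that passed an adjusted p of 0.05 in edgeR: 5508, or 20.4% of about 27000 features tested. In it Chd4 itself was 0.736 of its WT level (8.38 ± 0.06 in WT and 7.94 ± 0.08 log2 CPM in cKO, SD, n = 4 each). Markers of the main neurons of the cerebellum were high in all 8 libraries but moved with genotype. Pcp2 of Purkinje cells fell from 8.09 ± 0.09 to 7.73 ± 0.05 log2 CPM (SD, n = 4), with no overlap (adjusted p = 4.54e-08 in the authors' deposited table, edgeR). Gabra6 of granule neurons rose from 9.40 ± 0.03 to 9.60 ± 0.06, also with no overlap (adjusted p = 0.00705 in the same edgeR table). In such bulk tissue fewer cells of a type and less RNA per cell cannot be told apart, and the part of these markers' cells in the values that follow was not tested. The authors' deposited table lists 22.3% of all coding genes of the RefSeq table (3895 of 17492) and 22.7% of those in a divergent pair of coding genes (334 of 1469). It lists 29.0% of coding genes divergent with a lncRNA gene, 28.9% of those with several starts within 1 kb and 21.0% of those with no other start within 1 kb. Expression was not matched between these classes. Of the listed genes in divergent coding pairs 145 were higher and 189 lower in cKO, beside 2047 and 1848 over all coding genes. After rotarod training the authors' deposited table lists 3.38% of all features, 4.77% of genes in divergent coding pairs and 3.69% of all coding genes.

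Of 736 divergent coding pairs, both genes were listed in the cKO table in 47, 1 of them in 241 and neither in 448. The listed partners went the same way in 29 pairs, 16 higher and 13 lower, and opposite ways in 18. Of 821 divergent pairs of a coding and a lncRNA gene, 16 had both listed, 12 the same way and 4 opposite. In the rotarod table both genes were listed in 5 of the 736 coding pairs and 0 of the 821. Few lncRNA genes were listed at all. Of the 27025 annotated genes 17492 were coding, but 3895 of the 4081 matched cKO genes and 645 of the 675 matched rotarod genes were. The counts for the 821 pairs are limited by this and are no result about those pairs. With 22.7% of genes in divergent coding pairs listed in cKO, many pairs would have both listed by that rate alone. Whether partners changed together beyond it was not tested. The divergent coding pairs named next had the largest smaller fold change of either sort in cKO, with chromosome 18 left out. They were chosen after their values were seen. Duox2, an oxidase gene that makes hydrogen peroxide, and Duoxa2, the gene of its maturation factor, start 673 bp apart. Both were at low levels: in WT Duox2 lay near -2.87 log2 CPM, the value that stands for 0 reads. The difference of its log2 CPM means was 3.75, beside a log2 fold change of 4.8 deposited by the authors. Duox2 was at -1.89, -2.26, -2.32 and -1.88 log2 CPM in the WT libraries and at 1.92, 1.57, 1.59 and 1.57 in cKO, with no overlap (adjusted p = 1.26e-35 in the authors' deposited table, edgeR). Duoxa2 had 0 reads in each WT library and 2, 0, 4 and 8 in cKO, at least 4.77-fold higher when WT is set to a floor of 3 reads in all 4 libraries together, and one cKO library was as empty as WT. Without cKO library 4, which had 8 of the reads, the bound was 2.79-fold.

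Lyzl4, a lysozyme-like gene, and Vipr1, a receptor gene for vasoactive intestinal peptide, start 595 bp apart. Vipr1 rose from 2.39, 2.27, 2.63 and 2.72 log2 CPM to 5.06, 5.09, 5.18 and 5.16 (6.19-fold in the authors' deposited table), and Lyzl4 from -1.70 ± 0.46 to 0.43 ± 0.26 (SD, n = 4). Neither gene's groups overlapped. Lyzl4 in WT also lay near the value for 0 reads, -2.87 log2 CPM. Its difference of log2 CPM means was 2.13, beside a log2 fold change of 2.67 deposited by the authors. Ubxn10 rose from 1.04 ± 0.52 to 3.20 ± 0.11, and Pla2g2c, a secreted phospholipase gene that starts 60 bp away, went from 0 reads in WT to 9, 8, 10 and 8 reads in cKO, at least 11.9-fold higher by the same floor. The membrane protein genes Tmem176b and Tmem176a, 109 bp apart, rose 2.54-fold and 2.79-fold in the authors' deposited table, from 4.20 ± 0.22 to 5.55 ± 0.12 and from 1.76 ± 0.27 to 3.22 ± 0.09 log2 CPM.

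In the 3 pairs named for opposite changes, one gene was lower and its partner higher in cKO. Proser3 fell from 2.93 ± 0.40 to 1.89 ± 0.23 log2 CPM, while the small heat shock protein gene Hspb6, 235 bp away, was at 3.85 ± 0.15 in WT and 4.23 ± 0.25 in cKO, with groups that overlapped (adjusted p = 0.00517 in the authors' deposited table, edgeR). Mmab, of cobalamin metabolism, fell from 3.79 ± 0.09 to 3.41 ± 0.16, and Mvk, the mevalonate kinase gene 242 bp away, rose from 3.77 ± 0.17 to 4.11 ± 0.24 with overlapping groups. Fam216a rose from 3.61 ± 0.27 to 4.12 ± 0.06, and Gpn3, 166 bp away, fell from 4.05 ± 0.12 to 3.74 ± 0.23 with overlapping groups. All errors are SD with n = 4. Whether these pairs are among the H3K4me3 groups was not determined.

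**Figure D5:**
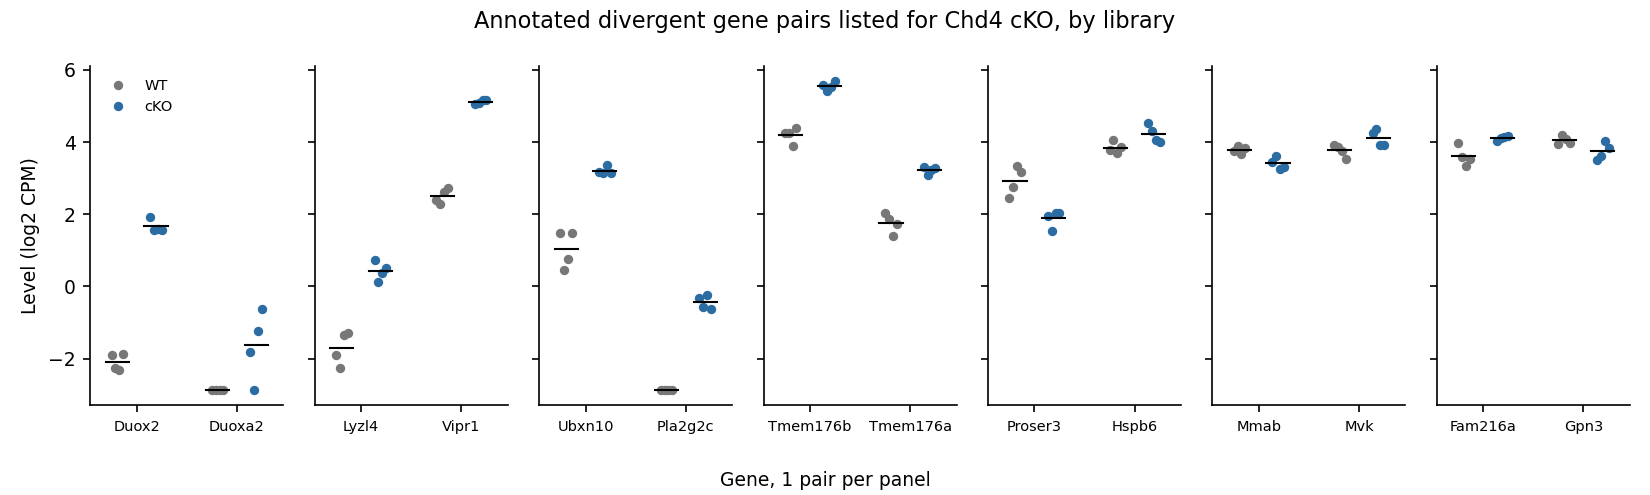
Level in log2 CPM of both genes of 7 annotated divergent pairs, 1 pair per panel, in 4 WT (grey) and 4 cKO (blue) libraries; points are libraries and black lines means. In the first 4 pairs both genes are higher in cKO, though 1 cKO library of Duoxa2 is at the WT level, and in the last 3 pairs the genes go opposite ways.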

How the data were processed

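The region lists give chromosome, start and end, with no header, sample, strand or score. Build mm9 and the tools Bowtie, SICER, bedtools and edgeR are named, per the submitters' processing notes, without versions or roles. Starts are printed counted from 1. Regions were chained into groups at 1 bp of overlap, checked against bedtools 2.31.1. Distances are edge to edge. The scripts were tested on simulated regions. Intervals came from scipy 1.17.1. The gene tables hold log2 fold changes and adjusted p-values deposited by the authors, and the cKO table also log2 CPM per library. Every adjusted p-value in them is under 0.05, so genes that missed this limit are absent. The number of features tested was worked out from their p-values, adjusted p-values and ranks. Low values of the cKO table were whole multiples of 1 read (100% within 0.1 read, up to 20 reads), which gave 13.7 to 15.6 M effective reads per library. Of the listed genes, 4081 of 5508 (cKO) and 675 of 908 (rotarod) matched the RefSeq table, by symbol, else by Entrez ID, else by an unambiguous synonym. No test was run on the regions, which have no replicates. Named regions were the 5 groups with the most regions (ties by longer span) and the 3 closest and 3 most distant pairs, chromosome 18 left out. No group overlapped H3K27ac, so that part of the rule named none. Members and lists were chosen with earlier results of these data known.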

Additional observations from a re-analysis of the deposited data

Results flagged for a closer look

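In cKO, the highest of the 4 libraries of Duox2 stood apart, at 1.92 log2 CPM with the next at 1.59, by Dixon's criterion for 4 values. Chance flags about 1 in 20 such groups, and 26 groups with a spread, from 14 genes, were looked at.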

How the results depend on the processing

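The share of overlapping regions, 29.8%, was 27.9% and 24.7% with at least 250 and 500 bp of overlap and 32.5% with regions up to 1000 bp apart joined. The share of overlapping regions at H3K27ac, 0 by overlap, was 8.27%, 21.0% and 59.9% within 5, 10 and 50 kb. The median number of other loci around a group, 1 within 50 kb, was 0 within 10 kb and 5 within 250 kb. This share and this number can only rise with the distance allowed, so these moves are no check. The 47 divergent coding pairs with both genes listed became 29 with starts within 250 bp and 8 with an absolute log2 fold change of at least 0.5 for both, settings chosen after the data were seen that admit fewer pairs. The other 13 of 23 alternatives stayed within the interval of the value or 1.5 times the count. For the 14 genes named in pairs, all 112 differences with 1 library left out kept their direction. All moved by less than 1 SD, but in groups of 4 leaving 1 library out cannot move a mean by 1 SD of its group. The size of the move is therefore no check. The lower bounds of the genes with 0 WT reads, 4.77-fold for Duoxa2 and 11.9-fold for Pla2g2c, ranged from 2.79 to 6.41 and from 8.79 to 12.5 with 1 library left out, a check added after the data were seen; the bound of Duoxa2 without cKO library 4 was the one that moved by over 1.5 times. Alternatives on base composition and on genes at the regions were not run, for want of a genome of build mm9. No paired analysis was possible because the regions have no samples and the gene p-values are the authors', from tables that hold only genes past the limit, so that a blocked fit over all genes could not be made. The depth behind the regions is unknown, which limits what can be said of starts that are not listed.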
